A study of Mus musculus with 5 samples.

Results

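The genes described here are 10 markers of smooth muscle and of myofibroblasts: Acta2, Tagln, Des, Myh11, Cnn1, Mylk, Myl9, Tpm1, Tpm2 and Vim. They were taken by symbol from the annotation of the array platform, and a gene was kept where at least 4 of the 5 arrays held a value. The annotation held 9 of the 10 symbols, each on 1 feature, and 5 of them met that rule, out of 10081 genes and unnamed features tested. These 5 were Acta2, Tagln, Des, Cnn1 and Tpm1. Vim, Mylk, Myh11 and Tpm2 had values on fewer arrays, and no feature carried the symbol Myl9.

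The arrays compared lungs of 129svJ mice, an inbred strain, after bleomycin, a DNA-cleaving antibiotic used to injure the lung. Each of 5 arrays held amplified whole-lung RNA of a single bleomycin-treated mouse in one channel. In the other channel all 5 held the same pool of amplified lung RNA from control mice of that strain. There is 1 group of 5 mice and 1 common control, and no genotype differs between them. The sources used here give neither dose, route and time after treatment nor age, sex and the number of pooled mice.

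Smooth muscle cells in the walls of airways and vessels shorten when myosin pulls on actin filaments, and light chain kinase switches that myosin on. Myofibroblasts are fibroblasts that have taken on part of this contractile apparatus, above all smooth muscle actin, and they lay down scar matrix in fibrotic lung. In both, many contractile genes are controlled by serum response factor, which binds the CArG box of their promoters. No gene on this list is confined to 1 cell type: desmin is also found in skeletal and heart muscle, tropomyosin 1 is a main tropomyosin of striated muscle, and vimentin is found in leukocytes and endothelium.

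Values are log2 ratios of the 2 channels with each array centred on its median. The base of the logarithm was taken as 2 and is not stated. The sources do not settle whether positive values stand for more RNA after bleomycin or in controls, so only the side of 0 is given. Ratios hold no level, so one gene's abundance cannot be set against another's. In whole lung, fewer cells of a type and less RNA per cell cannot be told apart. Arrays held between 11350 and 12083 values of 17280 features, and the arrays correlated across genes with Pearson's r between 0.73 and 0.86, which the shared pool adds to. Of 6 lung epithelial markers, Sftpa1, Sftpc, Sftpd, Scgb1a1 and Ager had values on all 5 arrays and Sftpb had no feature, but a ratio cannot show how abundant they were.

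The 5 measured members did not lie on 1 side of the control pool. Acta2, the smooth muscle actin, lay above 0 in every mouse. Desmin and transgelin lay below 0 in every mouse. Calponin 1 stayed close to 0, and tropomyosin 1 ranged from slightly below 0 to well above it. By limma with Benjamini-Hochberg adjustment over all 10081 features, 1 member passed an adjusted p of 0.05 above 0, 2 passed below 0 and 2 did not pass. Of all features tested, 25.8% passed above 0 and 23.9% below 0, together 49.6%, so 3 of 5 members is near the background. The median of the 5 means was 0.15, against −0.0066 over all features. All 3 calls treat the pool as a fixed reference. When the pool was given the spread of 1 treated mouse in the same limma fit, 0 members passed, against 2.98% of all features above 0 and 2.11% below 0, together 5.09%. Acta2 alone had an unadjusted p under 0.05 there, at 0.0462. In 3 of the 5 members, Acta2, Tagln and Des, every mouse lay on 1 side of 0, which was the case for 57.3% of all features.

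**Figure D1:**
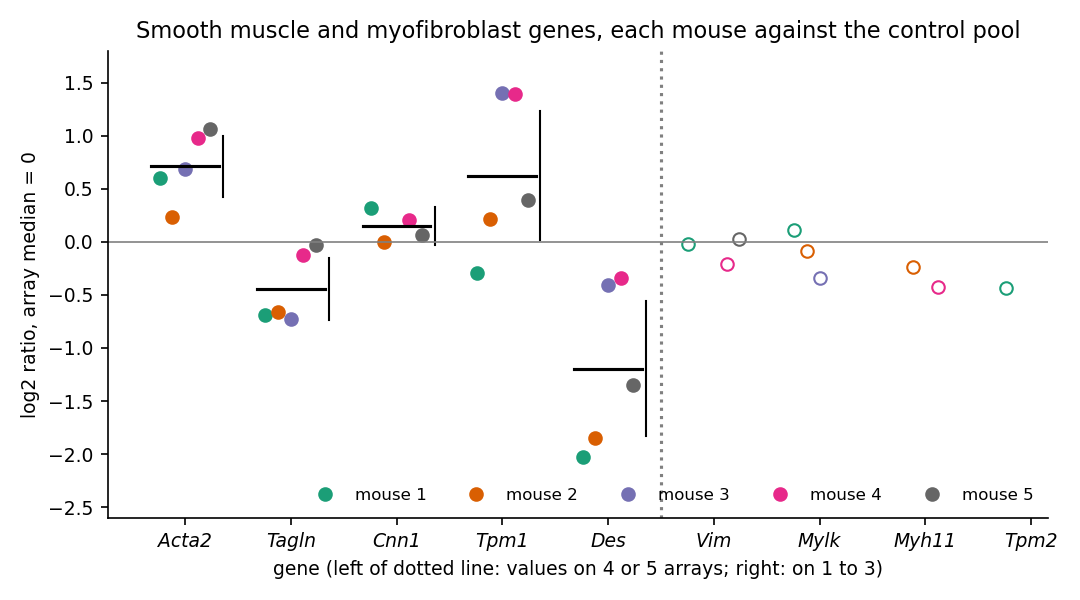
Log2 ratio of each mouse to the control pool (vertical axis, array median at 0) for the 9 member genes with a feature on the platform (horizontal axis). Filled points are genes with values on 4 or 5 arrays, with the mean as a horizontal line and limma's 95% interval as a vertical line; open points are genes with values on 1 to 3 arrays. Acta2 lies above 0 and Tagln and Des below 0 in all 5 mice, while Tpm1 and Des spread most.

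Acta2 encodes the actin isoform that defines vascular and airway smooth muscle and is the usual marker of myofibroblasts. Its log2 ratios in mice 1 to 5 were 0.60, 0.23, 0.68, 0.97 and 1.07. All mice lay above 0, mouse 2 lowest and mice 4 and 5 highest. The mean was 0.71 ± 0.33 (SD, n = 5), a 1.64-fold difference with a 95% interval of 0.43 to 0.99 on the log2 scale (limma, adjusted p = 0.00288). Leaving out any 1 mouse kept the call, with means from 0.62 to 0.83. With the pool given the spread of 1 mouse the interval widened to 0.016 to 1.41 and the adjusted p was 0.225.

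Tagln encodes transgelin, also called SM22, an actin-bundling protein of smooth muscle. Its log2 ratios were −0.69, −0.66, −0.73, −0.12 and −0.034 in mice 1 to 5. Mice 1, 2 and 3 lay close together, and mice 4 and 5 lay near 0. The mean was −0.44 ± 0.34 (SD, n = 5), a 1.36-fold difference (95% interval −0.73 to −0.16; limma, adjusted p = 0.0205). The call was lost without mouse 1, mouse 2 or mouse 3 (limma, adjusted p = 0.0573, 0.0692 and 0.0686). It was also lost against a minimum difference of 1.2-fold (limma's treat, adjusted p = 0.311).

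Cnn1 encodes calponin 1, which binds actin and restrains the myosin ATPase in differentiated smooth muscle. It had values of 0.32, −0.005, 0.21 and 0.068 in mice 1, 2, 4 and 5 and none in mouse 3. Mouse 2 was at 0 and the other measured mice lay a little above it. The mean of 0.15 ± 0.14 (SD, n = 4 mice) did not pass (95% interval −0.033 to 0.33; limma, adjusted p = 0.144), and without mouse 1 it was 0.091. That interval treats the pool as fixed and leaves out the mean of Acta2, 0.71. With the pool given the spread of 1 mouse it was −0.25 to 0.55. Acta2 minus Cnn1 averaged 0.57 in 4 mice (exact two-sided sign-flip test, p = 0.125, the smallest value that 4 mice allow).

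Des encodes desmin, the intermediate filament that ties contractile units together in every kind of muscle. Its log2 ratios in mice 1 to 5 were −2.03, −1.85, −0.41, −0.34 and −1.34. Mice 1 and 2 lay farthest below 0, mouse 5 between, and mice 3 and 4 nearest to 0. The mean was −1.19 ± 0.79 (SD, n = 5), a 2.29-fold difference and the largest among the measured members (95% interval −1.83 to −0.56; limma, adjusted p = 0.00977). The call held without each mouse in turn, with means from −1.41 to −0.98, and was lost with a plain one-sample test without moderation across genes (adjusted p = 0.0642).

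Tpm1 encodes tropomyosin 1, which lies along the actin filament and gates its contact with myosin. Its log2 ratios in mice 1 to 5 were −0.29, 0.22, 1.41, 1.39 and 0.39. Mouse 1 lay below 0 and the other mice above it, with mice 3 and 4 far above the rest. The mean of 0.62 ± 0.75 (SD, n = 5) did not pass (95% interval 0.015 to 1.23; limma, adjusted p = 0.0819). Without mouse 1 it passed, at 0.85 (limma, adjusted p = 0.0242), and without mouse 3 or mouse 4 the mean was 0.43.

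Members differed widely in how much they varied between mice. The SD of Des ranked above 99.2% and that of Tpm1 above 99.0% of all features, whose median SD was 0.16. Acta2 and Tagln ranked at 88.9% and 89.5%, and Cnn1 at 44.5%.

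**Figure D2:**
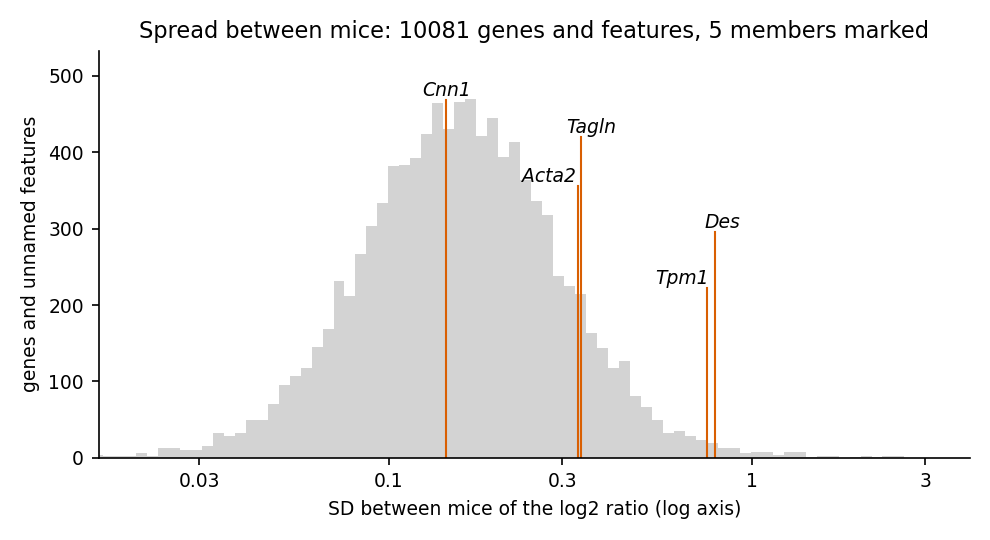
Histogram of the SD between mice of the log2 ratio (horizontal axis, log scale) over 10081 genes and unnamed features (vertical axis, number of features), with the 5 measured members marked by vertical lines whose heights carry no value. Cnn1 lies near the middle, Acta2 and Tagln in the upper flank, and Tpm1 and Des in the far right tail.

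Des and Tpm1 lay on opposite sides of 0 on average, yet they moved together from mouse to mouse. Tpm1 minus Des was 1.74, 2.07, 1.81, 1.73 and 1.73 in mice 1 to 5, a mean of 1.82 ± 0.15 (SD, n = 5). Each gene alone varied about as widely as the other, with SDs of 0.75 and 0.79. Among the 7436 other named genes with values on all 5 arrays, Tpm1 had the smallest SD of the difference from Des, and Des had the smallest from Tpm1. The median gene's SD of the difference from Des was 0.80. This ranking is a description over 5 arrays that share 1 pool, and it was made after the values were seen. With quantile normalization the SD was 0.26 and Tpm1 ranked 3. It also ranked 3 without mouse 1 or mouse 3, and 1 without mouse 2, 4 or 5. Next after Tpm1 came Myl3, a myosin light chain of heart and slow muscle (SD of the difference 0.22), Ryr1, the calcium release channel of skeletal muscle (0.25), Dffb, an apoptotic nuclease (0.27), and Cox7a1, a cytochrome c oxidase subunit of heart and muscle (0.29). These genes were picked by that rank. Where Tpm1 ranked 3, the nearest gene was Myl3 with quantile normalization, Aldh3a1 without mouse 1 and Hnrnpk without mouse 3.

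The same mice stood apart for skeletal muscle genes. Of 34 such genes, 24 were measured, of which 15 passed below 0 and 0 above, with 9 not passing and a median of −1.34. The share below 0 was 62.5%, against 23.9% of all features. Leaving out mouse 2 or mouse 5 reduced the 15 to 5 and 6. The plain one-sample test left 3, the 1.2-fold minimum 5 and the pool with the spread of 1 mouse 0. The median of the 19 genes with values on every array was −3.06, −1.52, −0.035, −0.28 and −1.49 in mice 1 to 5. It was thus lowest in mouse 1 and highest in mice 3 and 4, where Des and Tpm1 were also highest. Troponin C of fast fibres, Tnnc2, averaged −3.74 ± 2.34 and perinatal myosin, Myh8, −3.44 ± 2.08 (SD, n = 5). Their part in the values of Des and Tpm1 was not tested. Cardiac muscle genes lay mostly on the other side, with 8 of 15 measured above 0, 1 below and 6 not passing, so 53.3% passed above, against 25.8% of all features; without mouse 3, 2 passed below, and with the pool given the spread of 1 mouse 1 passed above. Their median over 11 genes was, like the skeletal one, lowest in mouse 1, at 0.11, and highest in mice 3 and 4, at 0.59 and 0.43. The median of 18 other smooth muscle genes was also highest in mice 3 and 4, at 0.17 and 0.28. It lay between 0.073 and 0.089 in mice 1, 2 and 5. The atrial and ventricular myosin Myh6 averaged 1.94 ± 0.39 and the atrial light chain Myl4 1.57 ± 0.46, against the natriuretic peptide gene Nppb at −1.31 ± 0.50 (SD, n = 5 each).

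**Figure D3:**
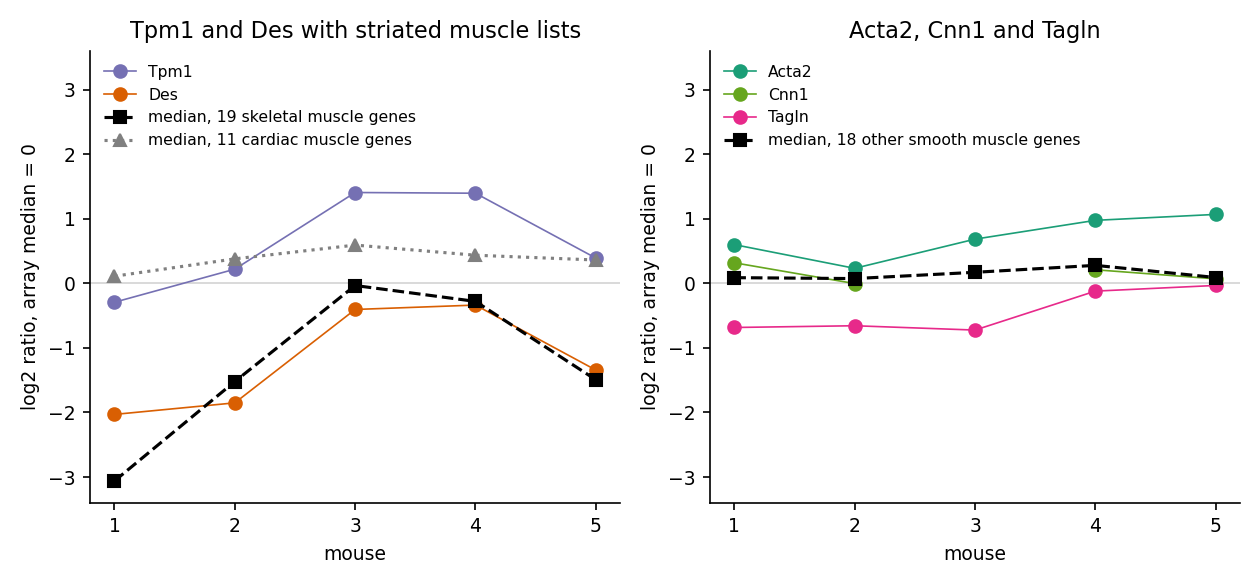
Log2 ratio (vertical axis, array median at 0) in mice 1 to 5 (horizontal axis; lines only join the points of a gene, and the mice have no order). Left, Tpm1, Des and the medians of 19 skeletal and 11 cardiac muscle genes; right, Acta2, Cnn1, Tagln and the median of 18 other smooth muscle genes. Tpm1 and Des keep a near constant distance, and both are highest in mice 3 and 4, as are the skeletal, cardiac and other smooth muscle medians.

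The other members followed Des less closely than Tpm1 did. Acta2 minus Tagln was 1.28, 0.89, 1.41, 1.10 and 1.10 in mice 1 to 5, a mean of 1.16 ± 0.20 (SD, n = 5). Many other genes kept a steadier distance from Tagln: Acta2 ranked 187 of 7436 by the SD of the difference, and between 51 and 1098 over quantile normalization and the fits without 1 mouse. Both genes were higher in mice 4 and 5 than in mouse 2. By contrast, Acta2 minus Des ranged from 1.09 in mouse 3 to 2.63 in mouse 1. By the SD of the difference from Des, Acta2 ranked 794 of 7436 (SD 0.68) and Tagln 2356 (SD 0.76). The median gene's SD was 0.80. Over all 10 pairs of measured members, an exact two-sided sign-flip test over mice gave p = 0.0625 for the 4 pairs of genes measured in all mice whose difference kept 1 sign, namely Acta2 and Tagln, Acta2 and Des, Tagln and Tpm1, and Des and Tpm1. This is the smallest value that 5 mice allow, and after Benjamini-Hochberg adjustment over the 10 pairs it was 0.156. Acta2 and Tpm1 differed by only 0.088 on average but by −0.72 to 0.89 in single mice (exact p = 0.812).

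The members with values on fewer than 4 arrays had values between −0.43 and 0.11. Vim, the intermediate filament of mesenchymal cells, was at −0.023, −0.21 and 0.022 in mice 1, 4 and 5. Mylk, the myosin light chain kinase that starts smooth muscle contraction, was at 0.11, −0.090 and −0.34 in mice 1, 2 and 3. These 2 genes lay 1 array short of the rule, which Cnn1 met with 4. Myh11, the smooth muscle myosin heavy chain, was at −0.24 in mouse 2 and −0.42 in mouse 4. Tpm2, the beta tropomyosin, had 1 value, −0.43 in mouse 1. No test was made on these genes, and the sources used here do not say why values are missing.

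Relatives of the members in their gene families also lay on both sides of 0. Of 6 actins, 4 were measured. Actc1, the cardiac actin, averaged 1.55 ± 0.60 (SD, n = 4 mice; limma, adjusted p = 0.00212). Acta1, the skeletal actin, averaged −1.70 ± 1.56 (n = 5; limma, adjusted p = 0.0322), from −3.52 in mouse 1 to 0.32 in mouse 3. The call for Acta1 was lost without mouse 1, 2 or 5. Actg2, the second smooth muscle actin, averaged 0.27 ± 0.22 (n = 4) and did not pass (limma, adjusted p = 0.0532), although it passed without centring and without mouse 2 (adjusted p = 0.0459 and 0.0149). Mice 3, 4 and 5 lay above 0 for Actg2 and mouse 2 at −0.043.

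Among tropomyosins, Tpm3, found in slow muscle and in the cytoskeleton of most cells, averaged −0.86 ± 0.83 (n = 5; limma, adjusted p = 0.0408). It was lowest in mouse 1, at −2.17, without which the mean was −0.53, and its call was lost without mouse 2, 3 or 5. Tagln2, the transgelin of non-muscle cells, lay below 0 like Tagln, at −0.66 ± 0.43 (n = 5; limma, adjusted p = 0.0108). Cnn3, the widely expressed calponin, averaged 0.42 ± 0.30 (n = 5; limma, adjusted p = 0.018), and its call was lost without mouse 4. Of the myosin chains outside the sarcomere, 3 of 5 measured passed above 0 and 0 below. These were the regulatory light chain Myl12b at 0.82 ± 0.66, and the non-muscle heavy chains Myh14 at 0.81 ± 0.22 and Myh10 at 0.26 ± 0.20 (n = 5 each). Without mouse 2 only Myh14 remained past the threshold. The essential light chain Myl6 at −0.26 ± 0.27 and the regulatory light chain Myl12a at −0.14 ± 0.13 did not pass, but Myl6 passed without mouse 1 (limma, adjusted p = 0.0169). The share above 0 was 60.0%, against 25.8% of all features, and none of these 5 passed with the pool given the spread of 1 mouse.

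**Figure D4:**
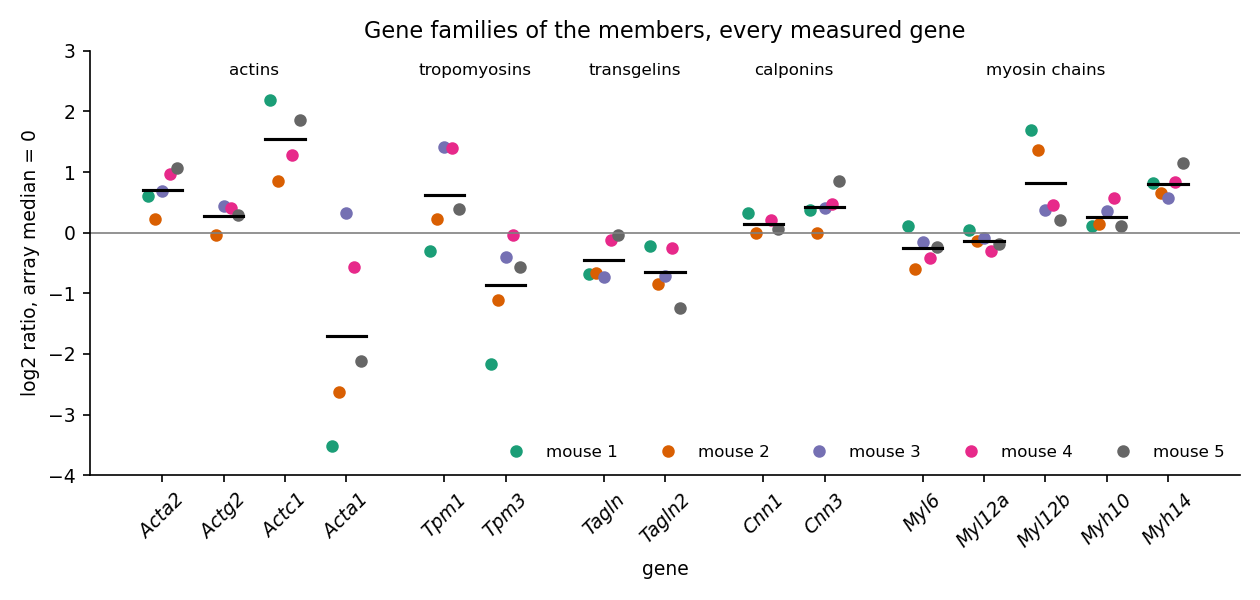
Log2 ratio of each mouse to the control pool (vertical axis, array median at 0) for every measured actin, tropomyosin, transgelin and calponin and the measured myosin chains outside the sarcomere (horizontal axis). Points are mice and horizontal lines are means. Acta2 and Actc1 lie above 0 while Acta1 spreads from −3.52 to 0.32; Tpm1 and Tpm3 both have mouse 1 lowest.

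Acta2, Acta1 and Actc1, whose mean ratios were 0.71, −1.70 and 1.55, each hold more than 1 CArG box before the start of transcription. Their promoter stretches are shown because these 3 genes lay on both sides of 0. They are RefSeq sequences of the build GRCm38.p6, 5′ to 3′ on the strand of the gene (the minus strand for all 3), with the boxes in capitals. A box was counted where CC and GG enclose 6 bases of which at most 1 is G or C. The box reads as a box on either strand. This loose form was chosen after the strict form, with only A and T inside, had found none in Acta2. 
Acta2, chr19:34255388-34255467: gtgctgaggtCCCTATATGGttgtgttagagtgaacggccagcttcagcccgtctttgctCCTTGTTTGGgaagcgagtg
Acta1, chr8:123894829-123894990: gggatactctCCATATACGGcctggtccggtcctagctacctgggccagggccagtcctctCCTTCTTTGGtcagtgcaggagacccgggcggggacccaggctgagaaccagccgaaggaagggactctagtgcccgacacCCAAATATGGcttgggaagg
Actc1, chr2:114052903-114053060: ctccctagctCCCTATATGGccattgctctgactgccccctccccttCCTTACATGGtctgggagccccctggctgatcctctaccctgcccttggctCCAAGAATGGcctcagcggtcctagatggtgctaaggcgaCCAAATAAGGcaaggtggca

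The boxes of Acta2 begin 84 and 34 bases before the start. The first has the same letters, CCCTATATGG, as the box of Actc1 that begins 175 bases before its start. Acta1 and Actc1 each hold 1 strict box, CCAAATATGG at 73 and CCAAATAAGG at 47 bases. The box is not particular to muscle actins: the cytoplasmic actin Actg1, which was not among the measured genes, holds a strict one, CCATATATGG, at 90 bases. Actg2 was not examined for lack of a window. In windows from 250 bases before to 50 after the start, 9.98% of 32851 RefSeq windows hold the loose form and 1.63% the strict form. These shares count a box anywhere in the window, while the boxes named here all end before the start. No share was counted for windows with more than 1 box. Of the members, 8 have such a window. Acta2 and Myl9 hold the loose form before the start, and Des, Cnn1, Tpm1, Mylk, Tpm2 and Vim hold none there. Only Myl9 among these members also holds a strict box, CCTAATAAGG, which begins 161 bases before its start. Tagln and Myh11 are named here without a window.

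Other genes of the smooth muscle cytoskeleton lay on both sides of 0. Of 38 listed, 21 were measured, of which 8 passed above 0, 3 below 0 and 10 did not pass, with a median of 0.14. The share past the threshold, 52.4%, is near the 49.6% of all features. Without mouse 4 or mouse 5 the 8 became 5. Filamin A, Flna, which cross-links actin, averaged 0.70 ± 0.21 (n = 5; limma, adjusted p = 0.000699), and every mouse lay above 0.55. The LIM protein Fhl1 averaged 0.88 ± 0.88, with mouse 3 at 2.39 and the others between 0.19 and 0.86; without mouse 3 the mean was 0.50, and its call was lost without mouse 1, 2 or 5. With the pool given the spread of 1 mouse, 0 of these genes passed.

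Genes that set smooth muscle tone through myosin light chain passed about as often as all features. Of 12 measured out of 32, 3 passed above 0, 2 below 0 and 7 did not pass, with a median of −0.037, so 41.7% passed, against 49.6% of all features. Without mouse 1, 2 or 3 the counts were 2 above and 1 below, and without mouse 4 or 5 they were 3 and 1. Calm3, a calmodulin gene, whose protein carries calcium to the light chain kinase, averaged −1.56 ± 0.078 (n = 5; limma, adjusted p = 8.87e-06). It lay between −1.63 and −1.47 in all mice and was the only one of these to pass with the pool given the spread of 1 mouse (adjusted p = 0.00434). On the other side stood Ppp1cb, the catalytic subunit of myosin phosphatase, at 1.07 ± 0.61, and Rock1, the kinase that inhibits that phosphatase, at 0.44 ± 0.096. Protein kinase C alpha, Prkca, averaged −0.21 ± 0.16, and leaving out any 1 mouse lost its call.

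Of regulators of smooth muscle genes, 17 of 34 were measured, with 6 past the threshold above 0, 3 below 0 and 8 not passing (median −0.014), a share of 52.9% past it against 49.6% of all features. The 3 below 0 became 1 without mouse 3 or mouse 5 and 2 without mouse 4. Gata6, a transcription factor of vascular smooth muscle and airway epithelium, averaged 0.95 ± 0.10 (n = 4 mice; limma, adjusted p = 0.000144) and passed with the pool given the spread of 1 mouse (adjusted p = 0.0238). Foxf1, a factor of lung mesenchyme and endothelium, averaged 0.94 ± 0.58 (n = 5), from 0.37 in mouse 4 to 1.75 in mouse 3. Gata5 averaged −0.63 ± 0.11, with every mouse between −0.79 and −0.48. Tead3, a partner of the YAP coactivator, averaged −0.17 ± 0.069 and did not pass without mouse 3, 4 or 5.

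Fibroblast genes also lay on both sides of 0, some of them by larger ratios than Acta2 and Tagln. Of 25 measured out of 38, 8 passed above 0, 11 below 0 and 6 did not pass, with a median of −0.17, so 76.0% passed, against 49.6% of all features. Below 0, S100a4, a small calcium sensor made by fibroblasts and by macrophages, averaged −2.76 ± 0.73 and the fibrillar collagen Col3a1 −1.29 ± 0.15 (n = 5 each). Above 0, the proteoglycan decorin, Dcn, averaged 1.93 ± 0.45 and the mesenchymal cadherin Cdh11 1.56 ± 0.27 (n = 5 each). With the pool given the spread of 1 mouse, 3 passed on each side, among them Col3a1, Dcn and Cdh11. Acta2, at 0.71, lay on the side of the 8 that passed above 0, decorin among them, and opposite the 11 below. Unlike decorin and Col3a1, Acta2 did not pass with the pool given the spread of 1 mouse.

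Pericytes, the contractile cells of capillaries, also express desmin. Apart from Des, 6 of 11 pericyte genes were measured, with 1 past the threshold above 0, 2 below 0 and 3 not passing (median −0.053). As 3 of the 6 did not pass, the share past the threshold is near the 49.6% of all features. With the pool given the spread of 1 mouse 0 of these genes passed, and with the 1.2-fold minimum also 0. The proteoglycan Cspg4 averaged 0.31 ± 0.058 (n = 4 mice), the potassium channel Kcnj8 −0.41 ± 0.23 and the growth factor receptor Pdgfrb −0.21 ± 0.14 (n = 5 each). The call for Pdgfrb was lost without mouse 2, 3 or 4. The lowest and highest values of Des were 1.69 apart, and its SD ranked above 99.2% of all features. Skeletal muscle genes such as Tnnc2 and Myh8 spread more widely still, with SDs of 2.34 and 2.08. The part of pericytes in the spread of Des was not tested.

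Among other intermediate filament genes, 12 of 18 were measured, with 4 past the threshold below 0, 0 above and 8 not passing (median −0.19). So 33.3% passed, all below 0, against 23.9% of all features below 0 and 49.6% on either side. Without mouse 2 or mouse 3 the 4 became 2. Krt18, a keratin of simple epithelia, averaged −1.54 ± 0.23 (n = 5; limma, adjusted p = 4.03e-05) and also passed with the pool given the spread of 1 mouse (adjusted p = 0.0158). Krt14, a basal cell keratin, averaged −0.47 ± 0.34 and did not pass without mouse 5. Of cells that share vimentin with the mesenchyme, macrophage genes had 8 of 11 measured past the threshold below 0 and 1 above. The share below was 72.7%, against 23.9% of all features. With the pool given the spread of 1 mouse, 2 macrophage genes passed below and 0 above. The complement chains C1qb and C1qa averaged −2.68 ± 0.23 and −2.11 ± 0.79 (n = 5 each), and the mannose receptor Mrc1 0.58 ± 0.28 (n = 4 mice). Endothelial genes had 8 of 11 past the threshold above 0 and 0 below, with Pecam1 at 2.45 ± 0.30 and Tmem100 at 2.32 ± 0.29 (n = 5 each). Their share above was 72.7%, against 25.8% of all features, and 3 passed with the pool given the spread of 1 mouse. The 3 values of Vim, in mice 1, 4 and 5, lay between −0.21 and 0.022. In those mice the medians of macrophage genes measured on every array ranged from −1.57 to −0.935. The endothelial medians there ranged from 0.60 to 1.18.

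Genes nearest to Acta2 and to Des in their values were found by the root mean square difference over the 5 mice, among 7436 named genes. For Acta2 these were Abi1, a subunit of the WAVE actin-nucleating complex, at 0.069, Ttc5 at 0.10 and Cdadc1 at 0.11. Their means were 0.68, 0.74 and 0.72, and each was lowest in mouse 2. For Des they were Ryr1 at 0.39, the ribosomal protein gene Rps2 at 0.44 and Smtnl1, a smoothelin-like protein of muscle, at 0.48. Mouse 1 was lowest for all 3, at −1.79, −1.82 and −1.88. The nearest genes to Des were several times farther from it than those nearest to Acta2. Ryr1 did not pass without mouse 2 (limma, adjusted p = 0.0563), and Smtnl1 did not pass without mouse 2 or mouse 5 and averaged −0.52 without mouse 1.

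The calls on the members rested on different mice. Acta2 passed without each mouse in turn and with a plain one-sample test. Des passed without each mouse but not with the plain test, and Tagln depended on mice 1, 2 and 3. Tpm1 passed only without mouse 1. Its direction and that of the other 4 was the same in every setting.

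**Figure D5:**
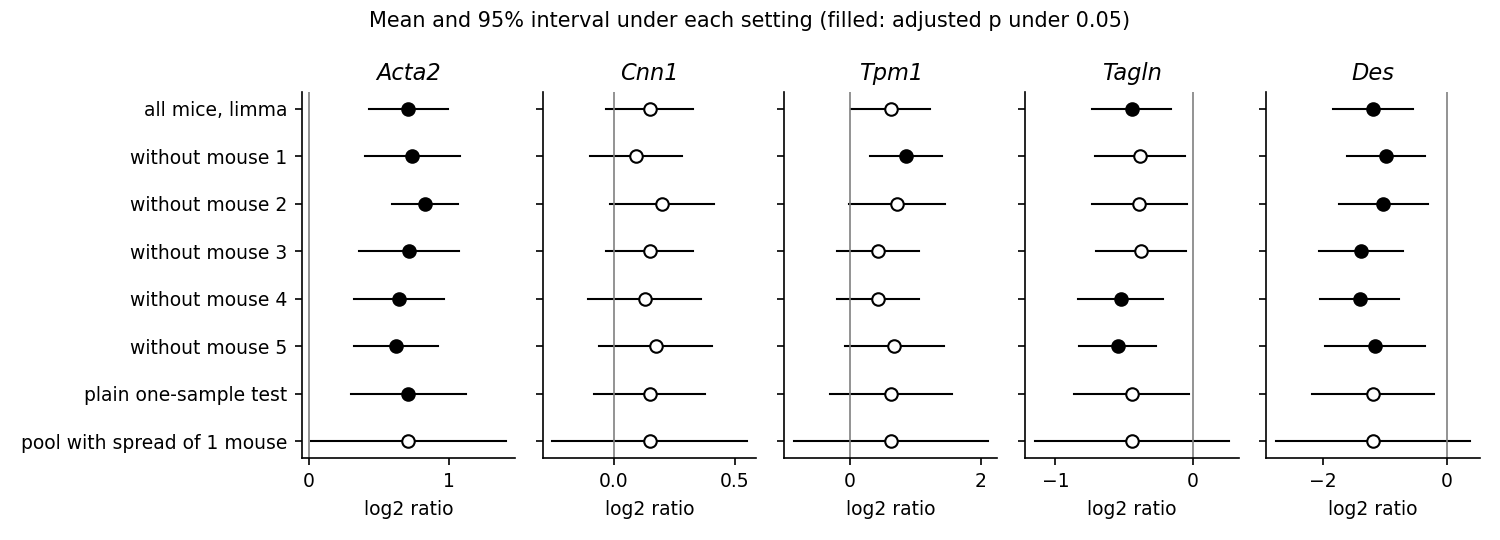
Mean log2 ratio (horizontal axis, with its own range for each gene) with its 95% interval for the 5 measured members, with all mice, without each mouse in turn, with a plain one-sample test and with the pool given the spread of 1 mouse (vertical axis). Filled points have an adjusted p under 0.05. No point is filled in the last row, and for Acta2 all others are.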

How the data were processed

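Each array compared amplified lung RNA of 1 bleomycin-treated mouse with a pool of control lung RNA, per the labels. The deposited values are log ratios, taken here as log2. The sources used here name no dyes, scanner, background correction, normalization or log base; the authors' deposited medians, 0.011 to 0.026, show values already centred near 0. No intensities were used and signal over background is not known; precision is limited by the number of arrays.

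Each array was centred on its median. Features with values on at least 4 of 5 arrays (10702 of 17280) were kept. In the platform's annotation 14722 features had a single symbol, 1 had several and 2557 had none, and symbols were updated through gene identifiers with RefSeq (GRCm38.p6; 14445 of 14723 matched). Features of 1 symbol were averaged. Mean ratios were compared with 0 by limma 3.58.1 (R 4.3.3; intercept only, empirical Bayes, two-sided, Benjamini-Hochberg), after a test on simulated data. The pool counts as 1 control sample, so its own spread is left out, and since the sources name no dyes and no dye swap, dye bias cannot be taken to cancel.

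Members and gene lists were chosen with earlier results of these data known. From each list the text names the 2 genes farthest from 0 on each side that passed with every array on that side, all measured relatives of the members, and the 3 genes nearest to Acta2 and to Des; genes named outside this rule are said to be. Members were left out of the other lists. Alternatives were no centring, quantile normalization, values on at least 3 or on all 5 arrays, a plain one-sample test, a 1.2-fold minimum, array weights, single features, the pool given the spread of 1 mouse and leaving out each mouse. Reading values as natural logarithms, and the settings of the differences between members, were chosen after seeing the data.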

Additional observations from a re-analysis of the deposited data

Results flagged for a closer look

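Among 51 named genes, 3 had 1 mouse far from the other 4 by Dixon's criterion, which chance meets in about 1 in 20 groups. None was one of the smooth muscle members. S100a4 stood at −1.49 in mouse 3, nearer to 0 than in the other mice. Col3a1 stood at −1.02 in mouse 2, again nearer to 0 than elsewhere. Nppb stood at −2.17 in mouse 2, farther below 0 than in the other mice.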

How the results depend on the processing

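The means of Acta2, Tagln, Des, Cnn1 and Tpm1 kept their side of 0 in every setting run. With the pool given the spread of 1 mouse, Acta2 at 0.71, Tagln at −0.44 and Des at −1.19 missed the threshold, so 0 members passed on either side, and all features past it numbered 300.0 above and 213 below 0; that setting widens every error by construction. With the plain one-sample test Tagln (−0.44) and Des (−1.19) missed it, leaving 0 below. With a 1.2-fold minimum Tagln (−0.44) missed it, leaving 1 below, and 1036 and 811 of all features passed above and below. Leaving out 1 mouse gave means from −0.55 to −0.37 for Tagln and from 0.43 to 0.85 for Tpm1, and 1 to 2 members past the threshold on either side; the cause was not tested. Taken as natural logarithms, the means of Acta2 and Des would be 1.02 and −1.72 in log2 units. Of the other 46 named genes, 11 kept their side of the threshold in all settings run. With the pool given the spread of 1 mouse, 33 lost their call and 10 passed. Signal over background, and so the limit for dim features, is unknown. No paired analysis was possible because there is 1 group.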
